A study of Mus musculus with 6 samples.

Results

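To describe where the transcription factor NF-Y sits in front of protein-coding genes in muscle stem cells (MuSCs), peaks of its subunit NF-YA were selected by position. A peak was included if its annotated gene was protein-coding, if its centre lay more than 100 bp and at most 1000 bp from the transcription start site (TSS) of that gene, and if the centre lay upstream of the TSS. These proximal upstream peaks numbered 1227 of 9056 peaks in the whole table (13.5%) and belonged to 1185 genes. They were compared with 1747 core promoter peaks (centre within 100 bp of the TSS on either side), 559 downstream peaks (more than 100 and at most 1000 bp into the gene) and 680 distal upstream peaks (more than 1000 bp upstream), all of protein-coding genes. NF-YA was mapped by CUT&RUN, in which an antibody guides a protein A and micrococcal nuclease fusion to its target on permeabilised cells and the released DNA is sequenced. The cells were wild-type MuSCs of C57BL/6 mice, kept in culture and labelled as activated/proliferating, so they do not represent quiescent stem cells in the muscle. All libraries shared genotype, strain and cell state. The NF-YA group held 3 libraries, described by the study as biological replicates, and 3 IgG libraries with the same numbers served as the authors' control in peak calling. IgG values were not analysed here.

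NF-Y is a trimer of NF-YA, NF-YB and NF-YC. NF-YB and NF-YC fold together like a pair of core histones, and NF-YA inserts into the minor groove at the pentanucleotide CCAAT, which makes NF-Y one of the most sequence-specific promoter factors. CCAAT boxes are typical of the stretch just upstream of the TSS, often in several copies, and are known from promoters of genes for cell cycle progression, histones, the unfolded protein response and sterol synthesis. Levels are given as normalised reads per peak, in which the authors scaled the reads of each library by its size factor and rounded them to whole numbers. They are not corrected for peak length, and a longer peak collects more reads.

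Upstream stretches of 13 genes are shown here because they carry the arrangements that the values below refer to: several CCAAT boxes in a row, on 1 strand or on both. The last stretch, of *Rras*, comes from the highest of the peaks without any box. All lie inside the peak, upstream of the TSS and outside annotated exons, are written 5′ to 3′ on the strand of the gene in mm10, and have each CCAAT or its reverse complement ATTGG in capitals (an overlapping pair appears as CCAATTGG). Positions count from the TSS as 0, with upstream negative, and that of a box is its middle base.
Sp1, chr15:102405633-102405872, + strand, -510 to -271: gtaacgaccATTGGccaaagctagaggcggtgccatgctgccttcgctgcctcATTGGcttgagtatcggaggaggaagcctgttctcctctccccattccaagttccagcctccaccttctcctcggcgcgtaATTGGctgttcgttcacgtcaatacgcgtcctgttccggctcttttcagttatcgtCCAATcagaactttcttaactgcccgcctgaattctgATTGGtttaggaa
Ska2, chr11:87108944-87109203, + strand, -290 to -31: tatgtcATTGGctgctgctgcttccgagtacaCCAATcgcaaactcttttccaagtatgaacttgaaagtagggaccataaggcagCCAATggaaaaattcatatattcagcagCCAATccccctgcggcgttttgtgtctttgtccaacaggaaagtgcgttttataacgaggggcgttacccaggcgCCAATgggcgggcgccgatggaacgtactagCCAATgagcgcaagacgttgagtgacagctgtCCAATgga
G3bp1, chr11:55469425-55469664, + strand, -260 to -21: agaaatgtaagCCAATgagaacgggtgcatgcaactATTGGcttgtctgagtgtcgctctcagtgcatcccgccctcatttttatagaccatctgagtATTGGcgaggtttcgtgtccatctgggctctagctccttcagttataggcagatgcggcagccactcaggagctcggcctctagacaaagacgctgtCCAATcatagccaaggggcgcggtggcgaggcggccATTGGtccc
Top2a, chr11:99024240-99024429, - strand, -240 to -51: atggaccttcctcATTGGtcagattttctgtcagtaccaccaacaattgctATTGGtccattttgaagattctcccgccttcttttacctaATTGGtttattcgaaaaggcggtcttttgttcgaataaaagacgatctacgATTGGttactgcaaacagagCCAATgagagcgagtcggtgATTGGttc
Ube2c, chr2:164769688-164769887, + strand, -210 to -11: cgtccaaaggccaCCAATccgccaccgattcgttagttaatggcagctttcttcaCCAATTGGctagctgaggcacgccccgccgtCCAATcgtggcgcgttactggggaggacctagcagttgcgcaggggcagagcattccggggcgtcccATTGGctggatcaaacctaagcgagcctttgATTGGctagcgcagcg
Ccnb2, chr9:70421558-70421657, - strand, -110 to -11: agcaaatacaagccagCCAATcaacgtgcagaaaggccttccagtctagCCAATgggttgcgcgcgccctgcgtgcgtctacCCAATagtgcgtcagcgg
Canx, chr11:50325734-50325863, - strand, -190 to -61: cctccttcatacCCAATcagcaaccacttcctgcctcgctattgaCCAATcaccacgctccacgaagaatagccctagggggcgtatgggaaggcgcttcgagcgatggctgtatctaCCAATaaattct
Fasn, chr11:120824588-120824647, - strand, -100 to -41: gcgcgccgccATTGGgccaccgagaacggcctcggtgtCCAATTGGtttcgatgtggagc
Pax3, chr1:78197175-78197244, - strand, -110 to -41: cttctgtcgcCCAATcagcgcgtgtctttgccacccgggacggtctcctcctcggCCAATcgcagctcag
H2bc12, chr13:22035650-22035749, + strand, -220 to -121: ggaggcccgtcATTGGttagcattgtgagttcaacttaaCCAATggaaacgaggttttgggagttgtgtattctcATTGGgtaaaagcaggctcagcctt
H2bc7 (ENSMUSG00000095217), chr13:21753903-21754002, + strand, -220 to -121: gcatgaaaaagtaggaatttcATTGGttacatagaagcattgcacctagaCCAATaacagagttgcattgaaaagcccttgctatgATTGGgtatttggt
H2bc7 (ENSMUSG00000094338), chr13:21716264-21716363, - strand, -220 to -121: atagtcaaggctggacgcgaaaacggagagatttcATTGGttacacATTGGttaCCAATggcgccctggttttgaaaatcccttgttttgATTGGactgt
Rras, chr7:45017541-45017640, + strand, -420 to -321: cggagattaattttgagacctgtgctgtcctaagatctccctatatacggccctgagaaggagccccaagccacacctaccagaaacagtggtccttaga

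The median proximal upstream peak held 35, 37 and 38 normalised reads in the libraries of replicates 1, 2 and 3, respectively. Behind these values stood about 53, 25 and 37 actual reads, for which counting alone gives a coefficient of variation (CV) of 13.8%, 20.0% and 16.4%. The 3 libraries placed 29.7%, 29.5% and 30.1% of their summed values over all peaks into the proximal upstream peaks. The median CV over the 3 libraries was 18.4%. Across the 1227 peaks, Pearson's r between libraries ranged from 0.938 to 0.953 on the log2(value + 1) scale (a description across peaks, which share each library). A total of 1102 peaks (89.8%) were above 3 reads in every library. The rest were kept (111 peaks were at or below 3 reads in replicate 2 and 39 in replicate 3, with some in both), so that counts and medians refer to all 1227 unless stated. Levels ran from a mean of 2 to 822, and 318 peaks (25.9%) had a mean of at least 100.

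The 10 highest proximal upstream peaks ranked between 2 and 16 among all 9056 peaks. They were long, from 579 to 1141 bp, all reached across the TSS, held between 6 and 10 CCAAT boxes each and had their centres 222 to 389 bp upstream. The highest peak belonged to *Sp1* (chr15:102405431-102406412), which encodes a zinc finger factor of GC boxes and a known partner of NF-Y, with 806, 848 and 812 normalised reads in replicates 1, 2 and 3 (822 ± 22.7, SD, n = 3). Its 8 boxes stood on both sides of the peak centre, and the window of 50 bp to either side of its centre held none. *Tomm40*, the channel of the mitochondrial outer membrane translocase (chr7:19715389-19716198), held 637, 765 and 785 normalised reads. *Zbtb20*, a zinc finger repressor (chr16:42875024-42875970), held 641, 765 and 649. The values of these genes lay close together, and replicate 1 was the lowest library for each of the 10 peaks.

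*Fam72a*, whose product antagonises a uracil DNA glycosylase, had 583, 727 and 723 normalised reads, and *Hdgfl2*, a chromatin-binding relative of hepatoma-derived growth factor, had 615, 694 and 712. *Rnf5*, a ubiquitin ligase of the endoplasmic reticulum, had 591, 665 and 653. The steadiest of the 10 was *Ska2*, a subunit of the kinetochore complex that holds microtubules (chr11:87108595-87109389), with 611, 615 and 623 and a CV of 0.991%. The widest spread was that of *Mon1b*, part of an activator of the endosomal GTPase Rab7, with 479, 635 and 694 and a CV of 18.4%. *G3bp1*, a core protein of stress granules, had 590, 609 and 597, and *Slc25a42*, a mitochondrial carrier for coenzyme A, had 517, 566 and 594. *Khsrp*, an RNA-binding protein, tied with it at a mean of 559 (504, 604 and 569, centre at 391 bp) and is not counted among the 10. For 3 of the 10 a protein-coding gene started on the opposite strand within 500 bp of the peak centre: *Srgap2* beside *Fam72a*, *Agpat1* beside *Rnf5* and *Prr11* beside *Ska2*. The peak with the most boxes was that of *Kctd7*, a protein with a potassium channel tetramerisation domain (chr5:130143988-130145113), with 12 boxes and 421, 482 and 546 normalised reads. A further 6 peaks held 10 boxes, those of *Rnf5*, *Ska2* and *Slc25a42* among them. *Osbp*, an oxysterol-binding protein, also with 10, had 543, 536 and 557.

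**Figure D1:**
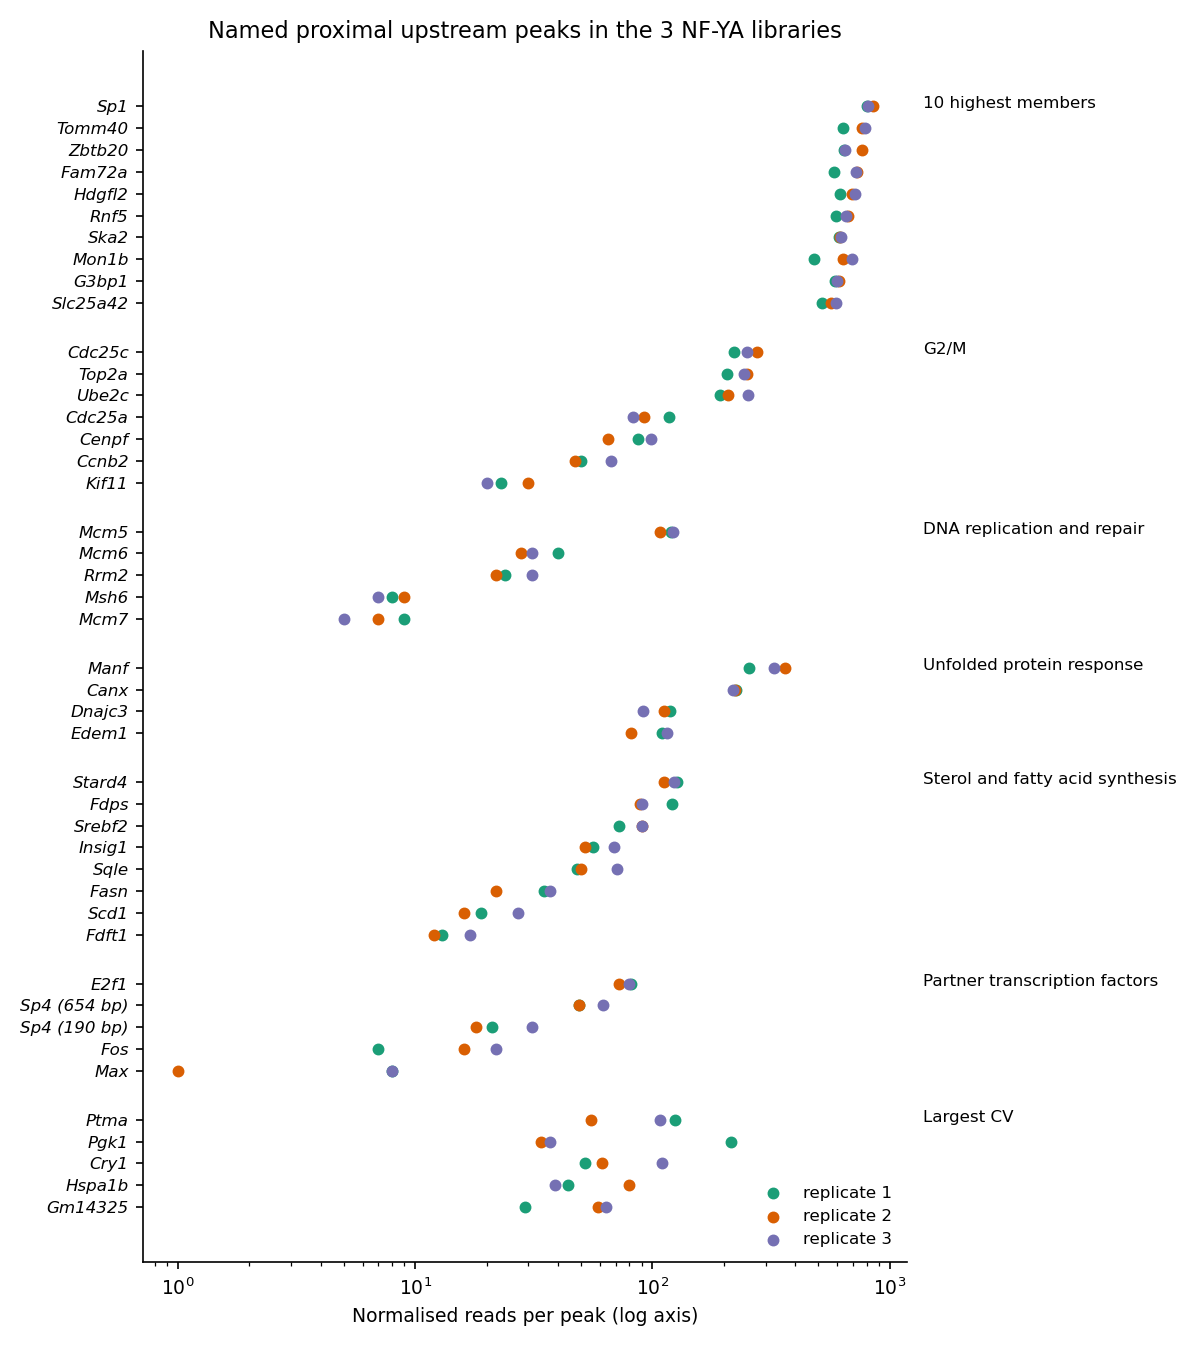
Normalised reads per peak (x axis, log scale) of named proximal upstream peaks in the 3 NF-YA libraries (points, coloured by replicate), grouped by gene list. The 10 highest peaks have means between 559 and 822, whereas *Max* was at 1 in replicate 2 and *Pgk1* at 214 in replicate 1 against 34 and 37 in the others.

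The median proximal upstream peak was higher than the median peak of the other positions in each library, and the step to distal upstream peaks was the widest. Median levels of core promoter peaks were 31, 30 and 32 normalised reads in replicates 1, 2 and 3, those of downstream peaks 22, 22 and 24 and those of distal upstream peaks 11, 12 and 12. In each library the order was the same, with proximal upstream peaks first. The log2 ratio of medians was 0.24 ± 0.06 (SD, n = 3 libraries) against core promoter peaks, 0.69 ± 0.05 against downstream peaks and 1.65 ± 0.02 against distal upstream peaks, positive in 3 of 3 libraries each time. The exact two-sided sign-flip permutation test over the libraries gave p = 0.25 for each ratio, which is the smallest p that 3 libraries allow, so 0.05 could not be reached. Peak length moved with these values: the median length was 280 bp for proximal upstream, 248 bp for core promoter, 226 bp for downstream and 181 bp for distal upstream peaks. Per kb of peak the log2 ratio was 0.09 ± 0.06 against core promoter peaks, 0.32 ± 0.03 against downstream peaks and 0.90 ± 0.04 against distal upstream peaks. The ratio to core promoter peaks turned to -0.33 ± 0.09 when only the 461 peaks more than 200 bp upstream were taken. Under the remaining alternatives this ratio ranged from 0.09 (no start of another gene within 1000 bp) to 0.50 (mean of at least 10). The filter on starts of other genes was applied to the proximal upstream peaks (889 kept) and not to the 1747 core promoter peaks.

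**Figure D2:**
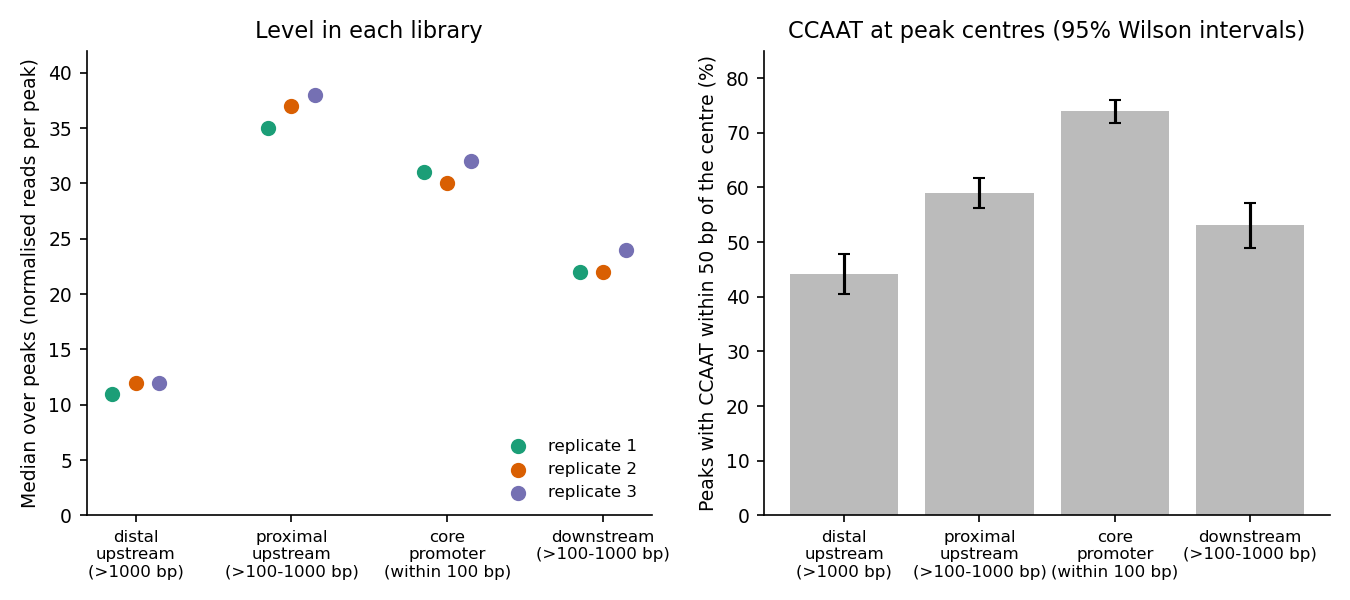
Left, median normalised reads per peak in each NF-YA library (points) for distal upstream, proximal upstream, core promoter and downstream peaks of protein-coding genes. Right, share of the same peaks with CCAAT within 50 bp of the centre (bars) with 95% Wilson intervals: levels were highest for proximal upstream peaks (35, 37 and 38), and the CCAAT share for core promoter peaks (74.0%).

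Within the proximal upstream stretch, most peaks lay close to the inner limit, and levels were not evenly spread over it. Of the 1227 peaks, 766 (62.4%) had centres more than 100 and up to 200 bp upstream, with a median of 44.7 normalised reads. The next 176, up to 300 bp, had the highest median at 62.0, and 73 of them (41.5%) had a mean of at least 100. The 95 peaks up to 400 bp had a median of 34.3 with an upper quartile of 223. Beyond 400 bp medians stayed between 11.3 and 16.7, and of 190 peaks there 13 had a mean of at least 100. These distant peaks were also shorter, with median lengths of 160 to 189 bp against 386 bp at 200 to 300 bp. Of the 190 peaks beyond 400 bp, 1 reached across the TSS, while 56.8% of those up to 200 bp and 38.6% of those up to 300 bp reached across it. Over all 1227 peaks, 528 (43%) spanned the TSS, and upstream therefore describes their centre.

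**Figure D3:**
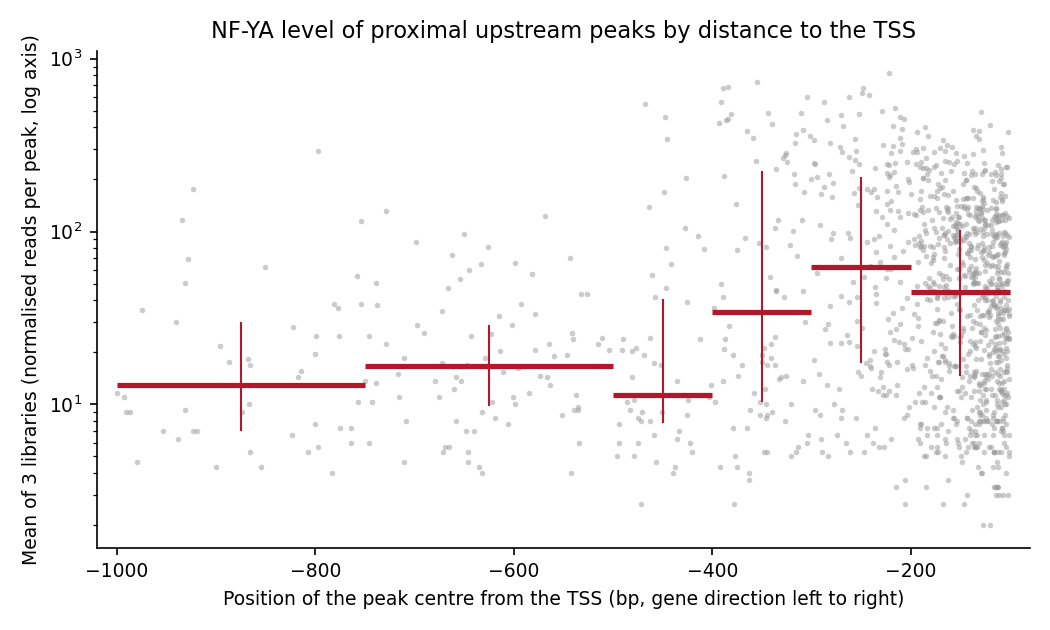
Mean of the 3 NF-YA libraries in normalised reads (y axis, log scale) against the position of the peak centre from the TSS for the 1227 proximal upstream peaks (grey points), with bin medians (horizontal red lines) and quartiles (vertical red lines). Medians were 44.7 and 62.0 in the bins nearest to the TSS and 11.3 to 16.7 beyond 400 bp.

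At the distance limits, neighbours on both sides are given as a description. Just inside the inner limit, 1 bp beyond it, stood 11 peaks with means from 5 to 120. Of these tied peaks, the 3 shown are those of *Eea1*, an early endosome tether, with 35, 35 and 37 normalised reads, *Map2k1*, the kinase MEK1, with 37, 34 and 29, and *Xirp1*, an actin-binding protein of striated muscle, with 3, 3 and 14. At 100 bp upstream, and therefore counted as core promoter peaks, were 16 peaks with means from 4.33 to 79.7, among them those of *Rbbp7* (29, 25 and 18), *Calu* (80, 61 and 69) and *Fzd5* (21, 13 and 24). The last inside the outer limit were those of *Prdm1* at 991 bp (10, 7 and 10), *Cabin1* at 993 bp (10, 15 and 8) and *Pdk2* at 1000 bp (11, 10 and 14). The first beyond it were those of *Hnrnpr* at 1012 bp (8, 9 and 9), *Fasn* at 1019 bp (7, 15 and 16) and *Fbxo11* at 1020 bp (78, 81 and 95).

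The CCAAT box itself was present within 50 bp of the centre of 724 proximal upstream peaks (59.0%, 95% Wilson interval 56.2 to 61.7%). Windows of the same length 1000 bp further upstream held it in 12.8% and those 1000 bp downstream in 9.94%. At 636 peaks only the centre and at 69 only the upstream flank had the motif, and the counts against the downstream flank were 655 and 53 (two-sided exact McNemar test across peaks, log10 p = -115 and -132; peaks of 1 gene and of neighbouring genes are not independent). The extended motif RRCCAATSR occurred in 28.8% of the central windows and in 0.652% and 0.733% of those upstream and downstream. The CCAAT share was 14.9 percentage points below that of core promoter peaks (74.0%, 95% Newcombe interval of the difference -18.4 to -11.5) and 14.9 points above that of distal upstream peaks (44.1%, interval 10.2 to 19.5). No p was attached to these differences between kinds of peaks. Counted over the whole peak, 77.8% of proximal upstream peaks and 84.6% of core promoter peaks had a box, whereas 49.5% and 43.0% had at least 2. In the RefSeq promoter table of the same assembly (250 bp before to 50 bp after the TSS), 943 of 1171 gene symbols with a proximal upstream peak were matched, and CCAAT was present in 66.1% of their promoters and in 37.4% of all 32851.

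Levels were higher in peaks with more boxes. The 724 peaks with CCAAT within 50 bp of the centre had a median of 56.2 normalised reads, and the 503 without it 17.3, a log2 ratio of medians of 1.71 ± 0.14 (SD, n = 3 libraries, positive in 3 of 3, exact permutation p = 0.25, the smallest possible). Per kb of peak the ratio was 0.98 ± 0.14, for peaks with a mean of at least 10 it was 1.06, and for CCAAT anywhere in the peak 2.60. Because a longer peak has room for more boxes, boxes were also counted in a fixed window of 100 bp to either side of the centre. There, 299 peaks without a box had medians of 11, 12 and 12 normalised reads in replicates 1, 2 and 3, and 411 peaks with 1 box had 26, 28 and 27. The 332 peaks with 2 boxes had 70.5, 68 and 70.5, the 133 with 3 boxes 132, 127 and 126, and the 40 with 4 boxes 168, 169 and 191.5. The 12 peaks with 5 or more had 216, 206 and 203. In each library the median was higher at each further box, and per kb of peak it went from 71.9 without a box to 408 with 5 or more. The median CV was 28.6% in peaks without a box and 9.62% in those with 5 or more.

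**Figure D4:**
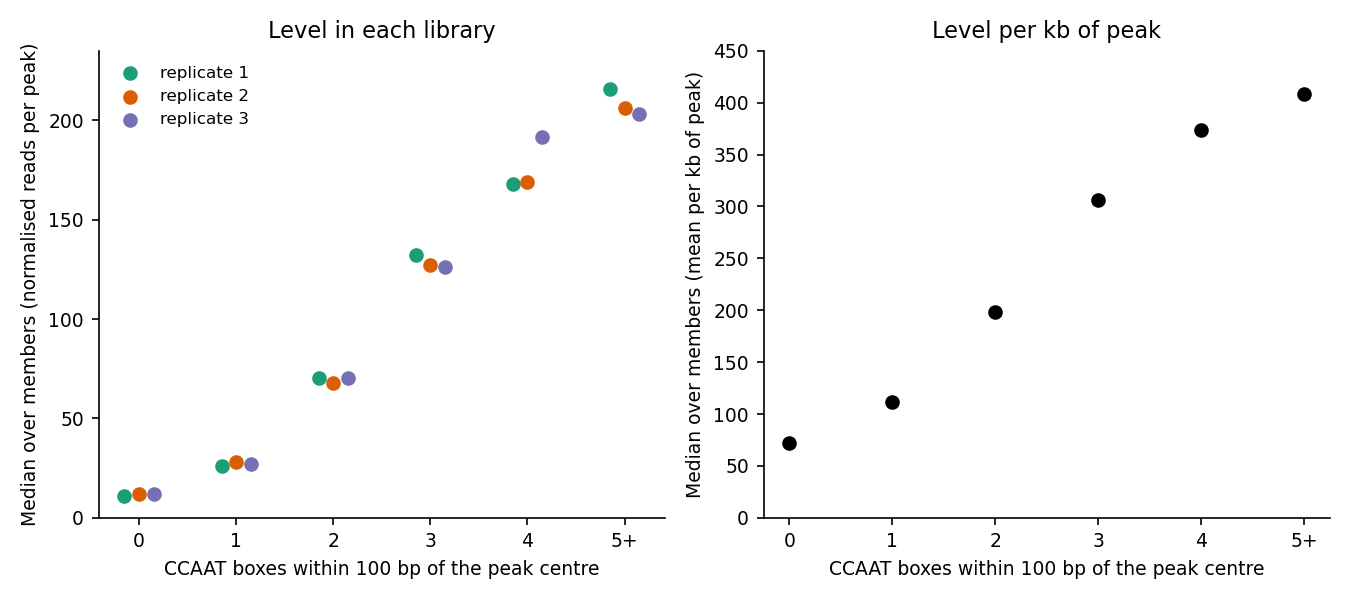
Left, median normalised reads of proximal upstream peaks in each NF-YA library (points) by the number of CCAAT boxes on either strand within 100 bp of the centre. Right, the median of the mean level per kb of peak, which ran from 71.9 without a box to 408 with 5 or more boxes.

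Over their full length the proximal upstream peaks held 2313 boxes. Of these, 44.4% lay within 50 bp and 72.0% within 100 bp of a peak centre. Since the rule places the centre upstream, the median box stood at -155 bp (quartiles -266 and -84), compared with -48 bp (-82 and -12) in core promoter peaks. Related to the bases that the peaks covered, the density was highest between -100 and -51 bp with 11.2 boxes per kb, followed by 9.06 per kb between -150 and -101 bp. It was 6.75 per kb in the last 50 bp before the TSS and 1.09 per kb in the first 50 bp of the gene. Core promoter peaks had 10.4 per kb between -100 and -51 bp and 10.3 per kb in the last 50 bp, but 2.28 per kb between -200 and -151 bp, where proximal upstream peaks had 6.85. On the strand of the gene lay 54.0% of boxes in proximal upstream peaks (Wilson interval 51.9 to 56.0%) and 49.8% in core promoter peaks (47.9 to 51.6%). These intervals take each box as independent, although several boxes can lie in 1 peak, so they may be too narrow. A preference for either strand was not tested.

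**Figure D5:**
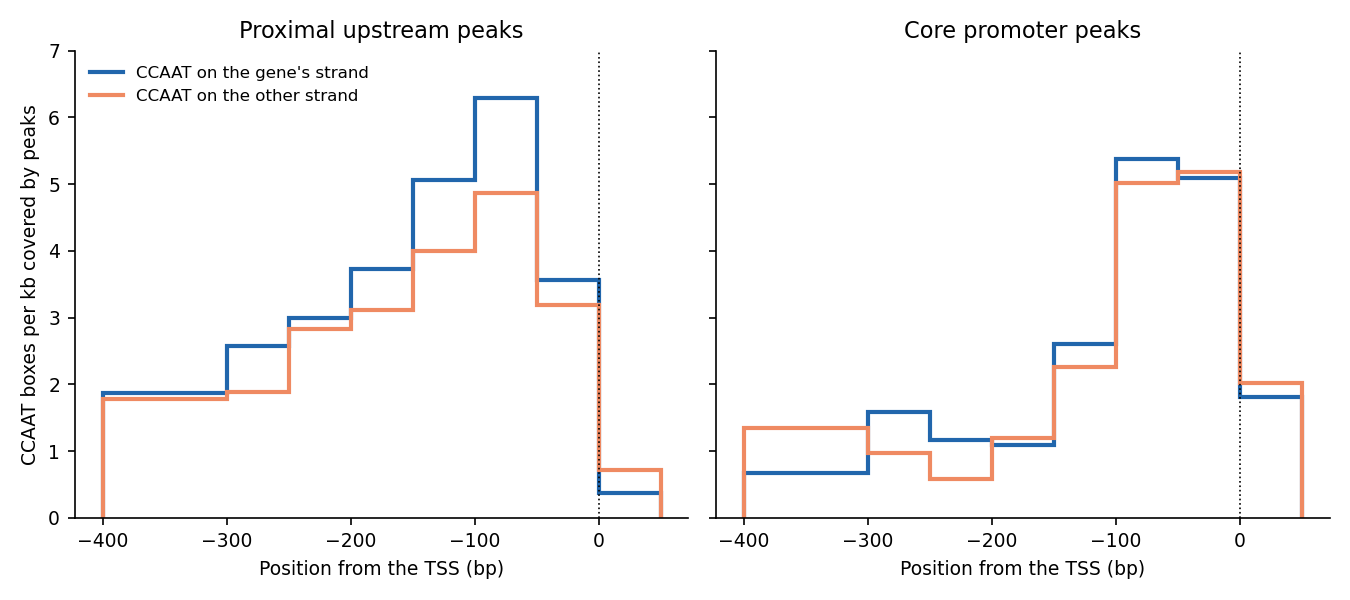
CCAAT boxes per kb of DNA covered by proximal upstream peaks (left) and core promoter peaks (right) by position from the TSS (dotted line), for boxes on the strand of the gene (blue) and on the other strand (orange). In proximal upstream peaks both strands together peak at 11.2 per kb between -100 and -51 bp and still reach 6.85 between -200 and -151 bp.

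Some spacings between neighbouring boxes on 1 strand were more frequent than the spacings beside them. Among 1032 such pairs in 505 peaks, 129 (12.5%) were 30 to 33 bp apart and 116 (11.2%) 40 to 43 bp. Between these ranges, 48 pairs were 34 to 39 bp apart, and 44 pairs were 44 to 48 bp apart. Another 76 pairs (7.36%) were 49 to 53 bp apart. The ranges were not planned beforehand and differ in width, so their counts are a description. Most pairs had other spacings, and neither the rate by chance nor that in core promoter peaks was computed. The 3 boxes shown for *Ccnb2*, cyclin B2, all lie on the strand of the gene and are 33 bp apart each time. In *Canx*, calnexin, the upstream pair of its 3 boxes is also 33 bp apart. The peak of *Ccnb2* held 50, 47 and 67 normalised reads and that of *Canx* 224, 222 and 219, the latter with a CV of 1.14%. *H2bc12* and the + strand *H2bc7* gene, both coding for histone H2B, share 1 pattern of 3 boxes in alternating orientation, spaced 28 and 36 bp in the former and 29 and 36 bp in the latter. Their levels were 186, 151 and 132 normalised reads for *H2bc12* and 167, 136 and 162 for this *H2bc7*.

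Other promoter motifs were counted within 50 bp of the centre on both strands. GGGCGG, the GC box bound by Sp1, occurred in 37.1% of proximal upstream, 44.2% of core promoter, 36.3% of downstream and 12.9% of distal upstream peaks. Peaks with both CCAAT and GGGCGG (278) had a median of 58.7 normalised reads and those with CCAAT alone (446) 54.0. Without CCAAT the medians were 18.3 with (177) and 17.0 without GGGCGG (326), so that medians differed more by CCAAT than by the GC box. The E-box CAGCTG, read by myogenic factors such as MyoD, was found in 5.79% of proximal upstream but 18.4% of distal upstream peaks, and TGANTCA, the site of AP-1, in 2.77% and 16.8%. CCGGAAG, an ETS motif, was present in 3.99% of proximal upstream and 7.90% of core promoter peaks. As a background in 300 bp of sequence, the 32851 RefSeq promoters held GGGCGG in 35.7%, CAGCTG in 16.3% and TGANTCA in 7.81%. GC content moved with position too: the median over the windows was 60.4% in proximal upstream, 61.4% in core promoter and 53.5% in distal upstream peaks, and its part in the motif shares was not tested.

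The 273 proximal upstream peaks without any CCAAT in the whole peak were low, with medians of 9, 10 and 10 normalised reads and a median length of 144 bp. Of these, 197 (72.2%) were above 3 reads in every library, compared with 94.9% of peaks with a box. CAGCTG was present in 28 of them (10.3%, Wilson interval 7.19 to 14.4%) and in 4.51% of peaks with a box, GGGCGG in 32.6% and 38.4%. Only 4 had a mean of at least 50, and they are named after their values were seen. *Rras*, a small GTPase related to Ras, had 85, 120 and 71, *Psmd3*, a subunit of the proteasome cap, 70, 92 and 83, *Blvrb*, biliverdin reductase B, 60, 62 and 67, and *Sec16a*, a scaffold of endoplasmic reticulum exit sites, 46, 59 and 67. *Rras* has no box in its 706 bp, which include the stretch shown above.

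Most genes with a proximal upstream peak, 1126 of 1185, had no separate core promoter peak. As a base, 1747 of all 4178 protein-coding genes with any peak had a core promoter peak. Downstream peaks were not counted here. A proximal upstream peak that reaches across the TSS also covers the core promoter itself, and the part of this in the count was not tested. In the 59 genes with both, the upstream peak was mostly the lower one, with median means of 10.3 and 46.7 normalised reads. These upstream peaks lay far from the TSS, at a median of 459 bp compared with 165 bp for all 1227 peaks. Levels beyond 400 bp were low in general, so the comparison describes this distant subset. The median log2 ratio of upstream to core promoter peak was -1.82 ± 0.03 (SD, n = 3 libraries, log2(value + 1) scale, negative in 3 of 3, exact permutation p = 0.25, the smallest possible), and -0.98 ± 0.15 per kb. The core promoter peak was higher in all 3 libraries in 44 genes and the upstream peak in 5, and 10 genes were mixed. *H2bc14*, coding for histone H2B, had 3, 6 and 3 normalised reads at 632 bp and 163, 149 and 143 at 73 bp. *Kdm3a*, a histone H3K9 demethylase, had 38, 50 and 53 upstream and 125, 170 and 125 at the core promoter. The reverse order was seen for *Smad6*, an inhibitory SMAD, with 72, 74 and 63 normalised reads at 928 bp and 30, 35 and 27 at 44 bp. *Rrm2*, the small subunit of ribonucleotide reductase, had 24, 22 and 31 upstream and 33, 16 and 25 at the core promoter, where the libraries overlapped.

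More than 1 proximal upstream peak was found for 41 genes, 40 with 2 and *Fam102a* with 3. The peak nearer to the TSS was higher in all 3 libraries in 31 of them and the farther one in 5, with median means of 58.7 and 13.7 normalised reads. *Camta1*, a calmodulin-binding transcription activator, had 377, 338 and 433 at 131 bp and 23, 33 and 30 at 698 bp, with 7 boxes in the former and 0 in the latter. *Znf367*, a zinc finger protein gene, had 182, 244 and 249 at 259 bp and 12, 25 and 28 at 896 bp. The opposite order held for *Gmfg*, glia maturation factor gamma, with 6, 4 and 6 at 289 bp and 100, 103 and 147 at 934 bp, and for *Tmem259* with 17, 18 and 16 at 345 bp and 103, 163 and 127 at 729 bp. In both, the nearer peak had 0 boxes and the farther 2. In *Sp4*, a relative of *Sp1*, the peak at 190 bp held 21, 18 and 31 and that at 654 bp 49, 49 and 62, each with 1 box. The genes in this and the preceding comparison were picked as examples after their values were seen.

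A peak upstream of 1 gene can lie at the start of its neighbour. Judged by GENCODE M21, 963 centres lay between genes, 139 in an intron and 125 in an exon of another gene. A transcript of another gene started within 100 bp of the centre for 96 proximal upstream peaks (7.82%, Wilson interval 6.45 to 9.46%), in 92 of them on the opposite strand. The share was 13.9% for core promoter peaks and 4.41% for distal upstream peaks (difference to the latter 3.41 percentage points, Newcombe interval 1.13 to 5.51). Counting starts of protein-coding genes only, the share was 2.77% and the difference to distal upstream peaks 0.565 points, with an interval of -1.04 to 1.95 that includes 0. Median levels of these 96 peaks were 27.5, 28 and 37.5 normalised reads in replicates 1, 2 and 3. Their log2 ratio to the other 1131 peaks was -0.27 ± 0.19 (SD, n = 3 libraries, negative in 3 of 3, exact permutation p = 0.25, the smallest possible). Per kb of peak it was -0.02 ± 0.03 and negative in 2 of 3, and with starts of protein-coding genes only (34 peaks) it was -0.69 ± 0.23. With starts up to 250 bp away, the direction turned to 0.59 ± 0.05, since the 105 peaks whose nearest other start was 100 to 250 bp away had the highest medians, at 86, 78 and 80. These were longer (median 371 bp), and 68.6% had CCAAT at the centre. Peaks with no other start within 1000 bp (889) had a median mean of 33.0. The listed gene need therefore not be the only one behind the peak: for 157 peaks (12.8%) a transcript of another gene began nearer to the centre than the listed distance.

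The gene lists examined were those tied to NF-Y or to this cell type. As background, 1185 of 4178 protein-coding genes with any peak (28.4%) had a proximal upstream peak, with a median mean of 36.3 normalised reads. For histone genes the count was 23 of 46 (50%, 24 peaks, median 75, 21 peaks with a box), and 19 of these peaks lay on chromosome 13, where the main histone clusters are. The highest were *H2az2*, a variant H2A gene, with 291, 272 and 285, and *H2ax*, the H2A variant phosphorylated at DNA breaks, with a mean of 188 ± 13.5 (SD, n = 3). *H3c1* at 287 bp upstream had 141, 202 and 202, *H2bc9* 136, 195 and 131. Altogether 11 histone peaks had a mean of at least 100 and 14 had at least 3 boxes. The 4 centred more than 500 bp upstream stayed at or below a mean of 35.3. In 5 histone peaks the nearest other start was that of a histone gene on the opposite strand, 138 to 169.5 bp from the centre, and these had means between 109 and 156, so that each could be assigned to either gene of the pair. Multi-mapping reads were removed by the authors, and reads in stretches shared by histone copies were therefore not counted. Several copies also share 1 symbol in the table. Histone genes were picked by how their symbols start, and symbols of the form *H1-2* were not counted. *H1-2* had a proximal upstream peak of 19, 53 and 37 normalised reads at 398 bp, with 0 boxes.

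Genes of G2 and mitosis had a proximal upstream peak in 7 of 19 cases (36.8%, median 97.3), all with CCAAT. *Top2a*, topoisomerase II alpha, held 206, 250 and 242 normalised reads over 6 boxes between -225 and -56 bp. *Ube2c*, the ubiquitin-conjugating enzyme of the anaphase-promoting complex, held 193, 208 and 253 over 6 boxes, and a transcript of the antisense gene *Gm11457* started 9 bp from the peak centre. *Cdc25c*, the phosphatase that activates CDK1, held 221, 275 and 251, and *Cdc25a* held 117, 92 and 83. *Cenpf*, a kinetochore protein, reached 87, 65 and 99, whereas *Kif11*, the spindle motor Eg5, stayed at 23, 30 and 20. The libraries of the first 3 genes did not overlap with those of the others.

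Genes of the unfolded protein response were represented by 4 of 18 (22.2%), all with a box and with means of at least 102. *Manf*, a secreted stress factor of the endoplasmic reticulum, was the highest with 256, 361 and 326, followed by the lectin chaperone *Canx*. *Dnajc3*, a co-chaperone, had 119, 112 and 91, and *Edem1*, which directs misfolded glycoproteins to degradation, 110, 81 and 115. Sterol and fatty acid synthesis counted 9 of 19 genes (47.4%, median 59.0, 8 peaks with a box). *Stard4*, a sterol carrier, had 127, 112 and 123, *Fdps*, farnesyl diphosphate synthase, 121, 89 and 90, and *Srebf2*, the master regulator of sterol synthesis, 72, 90 and 90. *Insig1*, *Sqle* and *Fasn* had means of 59.0, 56.3 and 31.3. *Scd1* at 491 bp had 19, 16 and 27. *Fdft1*, squalene synthase, had no box and 13, 12 and 17.

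DNA replication and repair counted 5 of 12 genes (41.7%, median 25.7). *Mcm5*, a subunit of the replicative helicase, held 120, 108 and 122 over 3 boxes at -135, -80 and -52 bp, *Mcm6* held 40, 28 and 31, and *Mcm7* at 954 bp held 9, 7 and 5. *Msh6*, a mismatch repair protein, had no box and 8, 9 and 7. Among transcription factors known to act with NF-Y, 6 of 11 genes (54.5%) had a proximal upstream peak. Besides *Sp1* and *Sp4*, they included *E2f1* with 81, 72 and 80, *Fos* with 7, 16 and 22 and *Max* with 8, 1 and 8. *Fos* and *Max* had no box.

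The lists for complexes and cell types studied alongside NF-YA held at most 15 genes with any peak each, so their shares rest on small counts. Of 34 chromatin modifiers listed, 15 had any peak and 1 (6.67%) had it in this position, *Mbd3*, a subunit of the NuRD complex, with 279, 270 and 321 normalised reads. The list covers a selection of such genes. Outside it, and named after their values were seen, *Kmt5c*, a histone H4K20 methyltransferase, held 520, 554 and 474, and *Gatad2a*, another NuRD subunit, 300, 273 and 310. TFIID counted 3 of 5 (60%, *Taf13* 26, 30 and 27, *Taf4b* 23, 13 and 23, *Taf4* 8, 4 and 22 and not above 3 reads in replicate 2), the NSL complex 1 of 3 (33.3%, *Kansl1* 24, 15 and 36 at 643 bp) and the nuclear lamina 2 of 8 (25%, *Lmnb1* 27, 18 and 16, *Lmna* 17, 19 and 12). Of the muscle stem cell and myogenic genes, 1 of 7 with any peak had one (14.3%), *Pax3*, a paired box factor of muscle progenitors, with 17, 24 and 20 and boxes at -98 and -53 bp. Collagens and matrix had 1 of 4 (*Sparc* 19, 37 and 19 at 799 bp) and class II antigen presentation 1 of 4 (*H2-Eb1* 7, 7 and 7). None of the 3 NF-Y subunit genes, all of which had a peak elsewhere, and none of the markers of other cells of muscle, of which 1 of 8 had any peak, was among them. These markers are genes near which NF-YA was found, so they say nothing on the purity of the cells.

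Replicates differed most, among peaks with a mean of at least 50, for *Pgk1*, phosphoglycerate kinase 1 (chrX:106186807-106187061). Replicate 1 held 214 normalised reads and replicates 2 and 3 held 34 and 37 (CV 108%). *Cry1*, a circadian repressor, had 52, 61 and 110, *Hspa1b*, an inducible HSP70 with a near-identical neighbour, 44, 80 and 39, *Ptma*, prothymosin alpha, 125, 55 and 108, and *Gm14325* 29, 59 and 64. The high library was thus not the same for these 5 genes.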

How the data were processed

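CUT&RUN for NF-YA and IgG was measured in 3 libraries each of cultured wild-type MuSCs. According to their methods and processing notes, the authors trimmed reads (Trimmomatic 0.39), aligned them to mm10 (STAR 2.7.9a), removed duplicates (Picard 2.25.5), spliced and multi-mapping reads, called peaks per NF-YA library against IgG with MACS2, unified the peaks, counted with featureCounts, normalised with DESeq2 1.30.0 and annotated the nearest gene. The deposited values are a score: size-factor-normalised reads per peak, rounded to whole numbers by the authors. Scaling hides a change common to all peaks, and peaks were selected on the libraries reported here.

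The value of 1 read was estimated from the rounded steps as 0.664, 1.48 and 1.02 normalised reads in replicates 1, 2 and 3, that is about 481469, 226924 and 334651 reads in peaks, and 3 reads equal 1.99, 4.43 and 3.06. On simulated data for 9056 peaks the step was recovered within 0.0447%. The simulation rounded its values in the way the estimate assumes, so it does not measure the error on the real values. A step below 1 leaves no whole number impossible, so the estimate for replicate 1 is the least certain. Intervals (95%) refer to numbers of peaks or boxes taken as independent, floors to numbers of reads, and neither covers the spread between libraries. Because values are not counts, medians were compared per library by exact sign-flip tests. The sign-flip p is 0.25 whenever all 3 libraries share a sign, whatever their spread. McNemar p-values refer to the set of peaks and not to libraries. Starts were read as counted from 0 and printed from 1. All 1227 listed distances matched the peak centre within 1 bp, and 1222 gene spans matched GENCODE M21. Motifs were searched on both strands of GRCm38.p6, the assembly behind mm10. RRCCAATSR overlaps CCAAT. Promoters were from RefSeq (GRCm38.p6).

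The peaks and lists were chosen with earlier results of these data known. Named were the 10 highest peaks (every library above 3 reads), 3 on each side of each distance limit, 5 with the most boxes (ties by mean), 5 with the largest CV at a mean of at least 50, and all list members except 2 that are not reported here. Alternatives were values per kb, a minimum mean of 10, other limits, windows and pseudocounts, and leaving out each replicate. There were 0 unassigned sample columns. Python 3.11.15, numpy 2.4.6, scipy 1.17.1, pandas 2.3.3 and matplotlib 3.10.9 were used.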

Additional observations from a re-analysis of the deposited data

How the results depend on the processing

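Across 11 results and 70 alternatives, 2 changed direction. With an inner limit of 200 bp the log2 ratio of proximal upstream to core promoter peaks became -0.33, and with starts of other genes counted up to 250 bp their ratio to the remaining peaks became 0.59. The other ratios of levels kept their direction under every alternative run, including without each replicate, but several changed in size. Against core promoter peaks 0.24 became 0.09 per kb of peak, 0.50 for a mean of at least 10 and 0.46 with an outer limit of 500 bp. It was also 0.09 with no start of another gene within 1000 bp, a filter applied to the proximal upstream peaks only. With an inner limit of 200 bp the ratio was 1.08 against distal upstream and 0.40 against downstream peaks. The ratio with and without CCAAT was 1.06 for a mean of at least 10 and 2.60 over the whole peak. Per kb the ratios were 0.98 for CCAAT, 0.90 against distal upstream and 0.32 against downstream peaks and -0.98 within genes. That of peaks near another start was -0.02 per kb, with 1 of 3 libraries above 0, and -0.69 with protein-coding genes only. Their p-values cannot pass 0.05 and say nothing about stability. The CCAAT share at the centres stayed above both flanks with p under 0.05 in all settings. Its difference to core promoter peaks was -8.34 percentage points with 100 bp to either side of the centre, -6.85 over the whole peak and -22.1 with an inner limit of 200 bp. Its difference to distal upstream peaks was 20.2, 24.1 and 7.73 points in the same settings and 9.21 with the longer consensus. Another gene started within 250 bp for 16.4% of peaks and, counting protein-coding genes only, within 100 bp for 2.77%, and the differences to distal upstream peaks were then 8.29 and 0.565 percentage points (the latter with an interval of -1.04 to 1.95). The median CV was 16.1% for peaks with a mean of at least 10 and ran from 13.5% to 16.1% without each replicate, where a CV over 2 values comes out lower by construction. The cause of the other shifts was not tested.

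No paired analysis was possible because IgG values were not analysed here, which leaves a single group. The number of reads in peaks limits single peaks most in replicate 2, where 111 of 1227 were at or below 3 reads. In replicate 1 it was 0 of 1227. The libraries were not sequenced alike, since replicate 1 had shorter reads than replicates 2 and 3. More peaks were also called in replicate 1 than in replicate 2 or 3. Whether the unified peaks lean on replicate 1, and the part of this in the low values of the other libraries, was not tested. Peak length, TSS overlap and box number move together and were not separated. Levels per kb account for length alone.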
